A study of Danio rerio with 8 samples.

Results

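Open chromatin of wild-type (WT) and *tp63* mutant zebrafish embryos was compared at 8 somites, an early stage of body axis formation, by matching the accessible regions found in each genotype. The comparison holds 176518 of the 337777 peaks of the series: 96625 in the WT list and 79893 in the mutant list. Members were all peaks of these lists. A WT and a mutant peak were matched when they overlapped by at least 1 bp, and ranks within a list followed the −log10 p-value given by the authors, then the fold enrichment where p-values were equal.

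The transcription factor p63 belongs to the p53 family and is needed to form the stratified epidermis of vertebrates. It binds DNA as a multimer at paired short motifs and, in keratinocytes, is known to work at enhancers of epidermal genes. ATAC-seq marks open chromatin through the Tn5 transposase, which cuts where DNA is free of nucleosomes, so that cuts accumulate at active promoters and enhancers. In whole embryos an enhancer used only by the epidermis is open in a fraction of the cells, and fewer such cells cannot be told apart from less open chromatin in each cell.

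The 4 libraries at 8 somites were 2 replicates labelled wild type and 2 labelled *tp63* −/−, all from whole embryos. Per the study's methods, each was a single embryo from *tp63* +/− parents and was genotyped after tagmentation, whereas libraries at 36 hours post fertilization (hpf), used here only for comparison, came from small pools. The mutation is a CRISPR deletion of a few bases, which leaves no trace in a peak list, and the genotypes were taken from the labels without a check. Both replicates of a group enter 1 deposited list, so these values cannot be divided by embryo, the variation between embryos is unknown, and no test between genotypes was made.

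For every peak of the lists, the deposited fold enrichment and p-value fitted a pair of numbers under a Poisson model: a whole number of tags at the summit and the number expected from the surroundings. The first is called the summit count here and the second the expected count. All 176518 peaks of both lists were solved, with a largest misfit of 0.000126 in −log10 p, and only 4 WT peaks and 0 mutant peaks allowed a second pair within 0.001, in which case the closer one was used. The median summit count was 31 in the WT list and 28 in the mutant list, and 90% of the peaks lay between 18 and 73 in WT and between 17 and 65 in the mutant (5th to 95th percentile). The lowest expected count, a measure of the genome-wide background, was 2.04 in WT and 2.00 in the mutant, a ratio of 0.982. At 36 hpf it was 3.80 and 4.09, a ratio of 1.08. These ratios stand for relative depth only if both lists were called with the same settings, which was not stated. No summit count in any of the 4 lists was above 200, a value reached by both mitochondrial peaks of the mutant list at 8 somites. High counts may therefore be compressed, and differences between them understated.

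Most open regions of the WT embryos were found again in the mutant, and their order of strength was similar in both genotypes but not the same. Matching gave 64065 pairs in which each peak was the other's best overlap, or 66.3% of the WT and 80.2% of the mutant list. Without any overlap were 33.2% of WT and 18.9% of mutant peaks in the lists as deposited, and 24.4% and 23.9% when both lists were limited to equal length. Ranks of matched peaks had a Spearman correlation of 0.82 over the 64065 pairs, against 0.86 over 59792 pairs at 36 hpf. Summit counts of pairs were higher at 36 hpf (medians 45 in WT and 51 in the mutant) than at 8 somites (38 and 31). No comparison between the stages held counts equal. The 5 pairs with the highest mean percentile over both genotypes are given next. Their place at the top of both lists follows from this choice. The region at chr20:4437645-4438069 (GRCz10, as are all positions) had a summit count of 145 in WT and 150 in the mutant, and at 36 hpf it had 151 and 166. The next were chr17:53292567-53292905 with 147 and 141, chr5:826081-826672 with 131 and 123, chr13:49749199-49749841 with 133 and 121, and chr10:39291187-39291508 with 125 and 117 in WT and mutant. The 95% intervals of these 5 ratios, which cover counting error only, all include 1. They also all include 0.848, the median ratio of mutant to WT over all pairs at 8 somites. Genes at the named regions were not analysed here, because no annotation of this build was used.

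Peaks without a counterpart were weak. Of WT peaks with a summit count of 50 or more, 180 of 17752 (1.01%, Wilson 95% interval 0.877 to 1.17%) had no mutant peak, against 78.9% (78.0 to 79.7%) of those below 20. Of mutant peaks, 29 of 10624 (0.273%, 0.190 to 0.392%) at 50 or more had no WT peak, against 54.2% (53.2 to 55.1%) below 20. The median summit count of unmatched peaks was 23 in WT and 21 in the mutant, against 38 and 31 for matched peaks.

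Rank shifts were measured as the percentile of a pair among all pairs, from 0 for the weakest to 100 for the strongest, in the mutant minus WT. Their mean is 0 by construction. The middle of the distribution was narrow: 33267 pairs (51.9%) shifted by less than 10 points, the quartiles were −9.36 and 9.52, and the 5th and 95th percentiles were −29.6 and 29.4. A shift of 20 points or more was called large. There were 7369 large shifts towards WT, or 11.5% of all pairs, and 7267 towards the mutant, or 11.3%. At 36 hpf the same rule gave 8.96% towards WT and 9.02% towards the mutant. The rule splits a continuous distribution, as the nearest pairs on each side of it had shifts of −19.997 and −20.005 points. With percentiles taken in the whole lists, which differ in length, 73.9% of large shifts went towards WT, against 50.3% with percentiles among pairs.

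Large shifts were most frequent in pairs of intermediate strength. When pairs were divided into deciles by their mean percentile, the share with a large shift was 3.90% in the weakest decile, where the scale ends, 43.6% in the fourth decile, 10.1% in the eighth and 1.19% in the ninth. In the strongest decile there was none, and 90% of its pairs lay between −5.65 and 5.40 points. The deciles were cut on the mean of the same percentiles whose difference is the shift. A mean near either end of the scale leaves little room for a large shift. The low shares in the weakest and strongest deciles are therefore partly fixed by the division. Shifts towards WT and towards the mutant were about equally frequent in each decile, with the widest gap in the second decile (16.6% and 15.3%). The 36 hpf pairs followed the same course with a smaller spread in every decile. Their summit counts were higher, and whether the smaller spread goes beyond that was not tested.

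**Figure D1:**
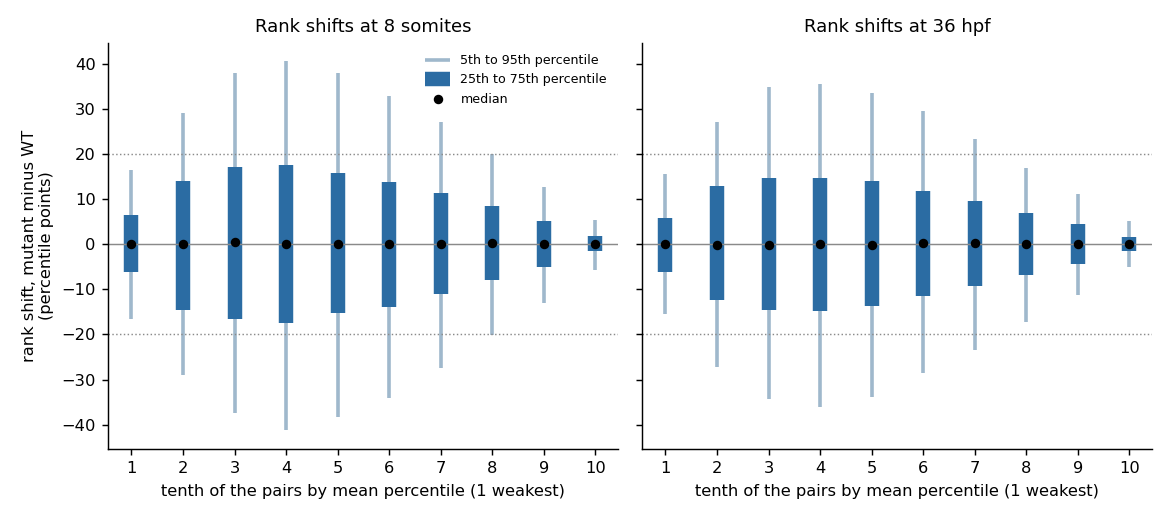
Rank shift of matched pairs, mutant minus WT in percentile points, by decile of the pairs from weakest (1) to strongest (10) at 8 somites (left) and 36 hpf (right). Thick bars span the quartiles, thin bars the 5th to 95th percentile, dots are medians, and dotted lines mark 20 points. At 8 somites the thin bar spans −41.3 to 40.5 points in the fourth decile and −5.65 to 5.40 in the strongest.

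Summit counts were lower in the mutant, by their median ratio, in every decile of strength. The mutant count was below the WT count in 50904 pairs (79.5%) and above it in 16.4%, and the median ratio of mutant to WT was 0.848 (−0.24 on the log2 scale). The median count of a pair was 38 in WT and 31 in the mutant. In the strongest decile the medians were 77 and 66, a median ratio of 0.863. At 36 hpf the direction was the opposite: the mutant count was higher in 74.7% of pairs, with a median ratio of 1.12. The expected count around the same peaks had a median ratio of 0.95 at 8 somites and 1.11 at 36 hpf. Around the median, the log2 ratio at 8 somites had an SD of 0.28 over pairs, below the 0.36 that independent Poisson counts of this size would give. It was below that value in every decile, with 0.16 against 0.24 in the strongest. The recovered counts of pairs therefore did not spread as independent Poisson counts would, and the reason was not tested. The exact intervals given for count ratios assume such counts. Embryo, library depth and genotype cannot be told apart as sources of a shift that all regions share.

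The 10 largest shifts towards WT and the 10 towards the mutant were taken from pairs on assembled chromosomes that stood at or above the 90th percentile in one genotype. In most of them the matched peaks were not the same summit. At chr2:2976459-2977639, the WT peak was 1181 bp wide with a summit count of 73 (94.0th percentile), and its matched mutant peak, 608 bp wide, had a count of 21 (1.95th percentile) at a summit 644 bp away. A further mutant peak with a count of 61 lay on the same WT peak, 71 bp from its summit. At chr1:23866341-23867104, the WT count was 102 and the matched mutant count 26, and a further mutant peak with a count of 79 had its summit 28 bp from that of WT. Of the 10 pairs shifted towards WT, 9 had summits more than 100 bp apart and 8 had another overlapping peak. Of the 10 towards the mutant, 7 and 6 did. There, chr21:550068-550636 had counts of 36 in WT and 70 in the mutant, but a further WT peak with a count of 80 had its summit 3 bp from the mutant summit.

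**Figure D2:**
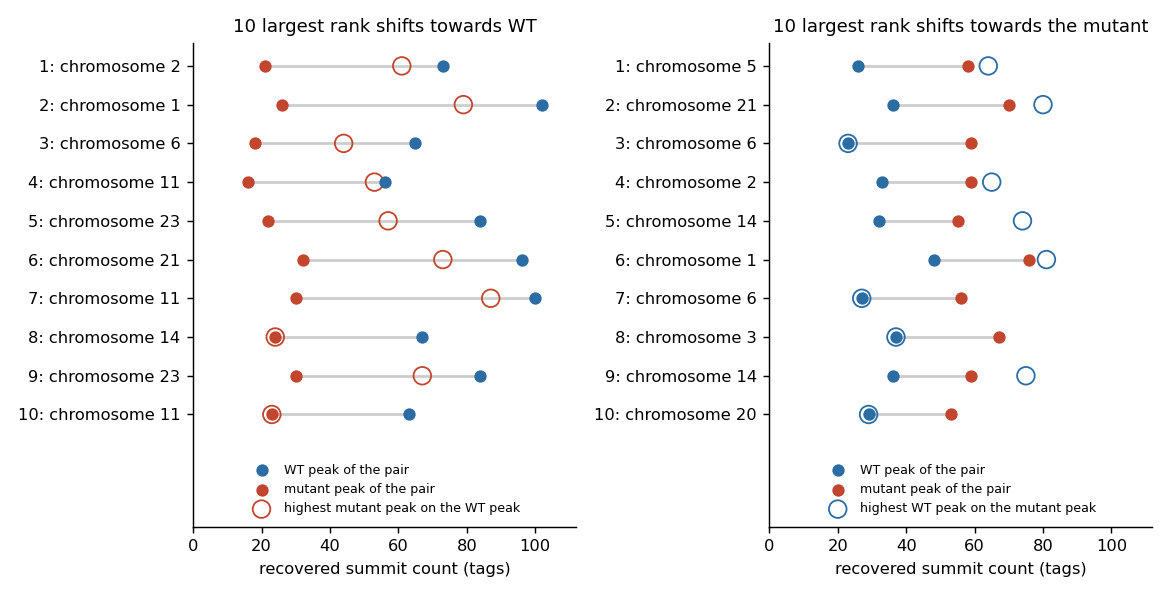
Recovered summit counts of the 10 pairs with the largest rank shift towards WT (left) and towards the mutant (right). Filled points are the WT (blue) and mutant (red) peaks of a pair, and the open circle is the highest peak of the lower genotype that overlaps the same peak. In the first row on the left, the WT peak has 73, the matched mutant peak 21 and the highest mutant peak on it 61.

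Such cases were more frequent among the extremes than among strong pairs in general. Of 7812 pairs at or above the 90th percentile in one genotype, 94 (1.20%) had a large shift towards WT and 59 (0.755%) towards the mutant, against 11.5% and 11.3% of all pairs. A pair at the top of one genotype can only shift towards that genotype by this much, so these shares are not comparable with those of all pairs. Of these, 30 towards WT (31.9%) and 19 towards the mutant (32.2%) had distant summits or another overlapping peak, against 4.31% of all 7812 pairs. That left 64 strong single sites shifted towards WT and 40 towards the mutant. Of these, 8 and 1 lay on chromosome 15, whose mean rank shift was towards WT. Chromosome 15 held 2508 of the 62655 pairs on assembled chromosomes. Its share of all strong single sites is not given here, so the 8 and the 1 cannot be set against it.

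The 3 strong single sites with the largest shifts in each direction, a choice made after the values were seen, are described by their counts. At chr14:49680624-49681014 the count was 67 in WT and 24 in the mutant, a ratio of 0.358 (exact 95% interval 0.215 to 0.579, counting error only), with summits 73 bp apart. At chr12:18559368-18559715 the counts were 53 and 23 (0.434, 0.254 to 0.720) at summits 1 bp apart. At chr25:31221879-31222203 they were 67 and 31 (0.463, 0.292 to 0.718). The last 2 had matched peaks at 36 hpf, with counts of 57 and 72, and of 46 and 48, in WT and mutant, and rank shifts of 8.86 and −4.65 points. In the other direction, chr6:12642345-12642714 had 27 in WT and 56 in the mutant (2.07, 1.29 to 3.42) with summits 3 bp apart. The counts were 37 and 67 at chr3:42664264-42664482 (1.81, 1.19 to 2.78) and 29 and 53 at chr20:51142979-51143332 (1.83, 1.14 to 2.98). At 36 hpf the counts of these 3 regions were 45 and 71, 59 and 71, and 46 and 84 in WT and mutant. Their rank shifts there were 31.1, 0.754 and 27.1 points, so that the first and the third were again large towards the mutant. The next 2 in each direction were also examined. Towards WT, chr15:43140520-43141107 had counts of 72 and 30 and a shift of −28.8 points at 36 hpf, and chr6:11129991-11130230 had 64 and 31. Towards the mutant, chr22:37681962-37682164 had counts of 30 and 51 and a shift of 30.8 points at 36 hpf. The last, chr19:14619941-14620231, had 34 and 51 and a shift of 23.0 points at 36 hpf. The interval of its ratio, 0.953 to 2.39, includes 1 but lies above 0.848, the median ratio over all pairs. Since these sites were picked as extremes of many pairs, the intervals do not account for that choice.

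Summits of matched peaks lay close together. The median distance was 15 bp, 40.9% of pairs lay within 10 bp, 5.40% were at the same base, and 90% lay within 71 bp. The mutant summit was to the right of the WT summit in 47.2% of pairs and to the left in 47.4%. A distance above 100 bp was found in 3138 pairs, 4.9% of the total, against 5.41% at 36 hpf. The distance fell with strength, from a median of 26 bp in the weakest decile to 9 bp in the strongest, and the share above 100 bp fell from 10.2% to 1.33%. Pairs with distant summits had wider WT peaks (median 504 bp against 343 bp) and 9.78% of them had another overlapping peak. Among pairs with large rank shifts, 5.62% had distant summits, against 4.68% of the other pairs. Strength was not held equal in this comparison, and both measures varied with it. The median size of the rank shift was 8.02 points at a distance of 0 bp, 10.7 points at 51 to 100 bp and 24.2 points in the 84 pairs more than 500 bp apart. The largest distances among strong pairs were 902 bp at chr18:409112-410278, where the WT count was 106 and the matched mutant count 38, 871 bp at chr10:45133488-45134868, with 108 and 49, and 849 bp at chr3:10342109-10342765, with 52 and 78. In each of them the stronger summit had a peak of the other genotype within 5 bp, with a count of 96, 95 and 88.

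Mutant peaks were narrower at 8 somites. The median width of matched peaks was 349 bp in WT and 331 bp in the mutant. The mutant peak was narrower in 39414 pairs (61.5%) and wider in 37.6%, with a median ratio of 0.961, and 90% of the width ratios lay between 0.652 and 1.31. At 36 hpf the mutant peak was narrower in 38.7% of pairs and the medians were 345 bp in WT and 367 bp in the mutant. At both stages the genotype with the lower summit counts had the narrower peaks. The excess of narrower mutant peaks held in every decile of strength at 8 somites, from 59.1% in the weakest to 63.9% in the strongest, and among pairs whose ranks differed by less than 5 points (62.5%). It was 69.3% among pairs with a large shift towards WT and 51.4% among those with a large shift towards the mutant. Few pairs changed width by a factor of 2: the mutant peak had at most 1/2 of the WT width in 898 pairs (1.40%) and at least 2 times the WT width in 328 (0.512%). The largest losses of width among strong pairs were at chr8:5174210-5175376 (1167 bp in WT and 313 bp in the mutant), chr10:17634234-17635475 (1242 and 452 bp) and chr20:22780485-22781609 (1125 and 382 bp). Their summits lay within 31 bp of each other and their counts were 78 and 62, 88 and 72, and 69 and 52, so the main summit was present in both genotypes. On the first of these WT peaks the mutant list had 2 further peaks, so that the WT peak was split as well as narrowed. The largest gains of width were at chr14:49798687-49799045 (359 and 1041 bp), chr10:8478772-8479058 (287 and 897 bp) and chr2:8314740-8315097 (358 and 927 bp), of which the first and the last involved another WT peak under the mutant peak.

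Along the genome, chromosome 15 stood apart from the other 24 assembled chromosomes. Its 2508 pairs had a mean rank shift of −5.70 points, while the means of the others lay between −1.33 (chromosome 22) and 1.16 (chromosome 10). Its mean minus that of the others was −5.88 points, towards WT. Ranked by fold enrichment, the sign was reversed, at 1.07 points towards the mutant, with the spread of the others not given. Large shifts towards WT made up 18.9% of its pairs (8.74 to 13.7% on the others), and those towards the mutant 6.46% (9.10 to 14.0%). The number of mutant peaks per WT peak was 0.758, against 0.785 to 0.888 elsewhere. Summit counts on chromosome 15 had a mean log2 ratio of mutant to WT of −0.44 (0.739-fold), against −0.26 to −0.21 elsewhere, where the mean was −0.23 with an SD of 0.01 over the 24 chromosomes. The expected count, which comes from the surroundings of the peak and not only from the open region, moved further: its mean log2 ratio was −0.36, against −0.10 to −0.04. Fold enrichment divides these measures, so a change common to both leaves it nearly unaltered. At 36 hpf chromosome 15 lay within the range of the other chromosomes, with 0.17 (0.15 to 0.20 elsewhere) for the summit count and 0.15 (0.12 to 0.19) for the expected count. Median summit distance did not set it apart at 8 somites (15 bp, 14 to 17 bp elsewhere), whereas 67.7% of its mutant peaks were narrower (59.5 to 63.9% elsewhere).

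**Figure D3:**
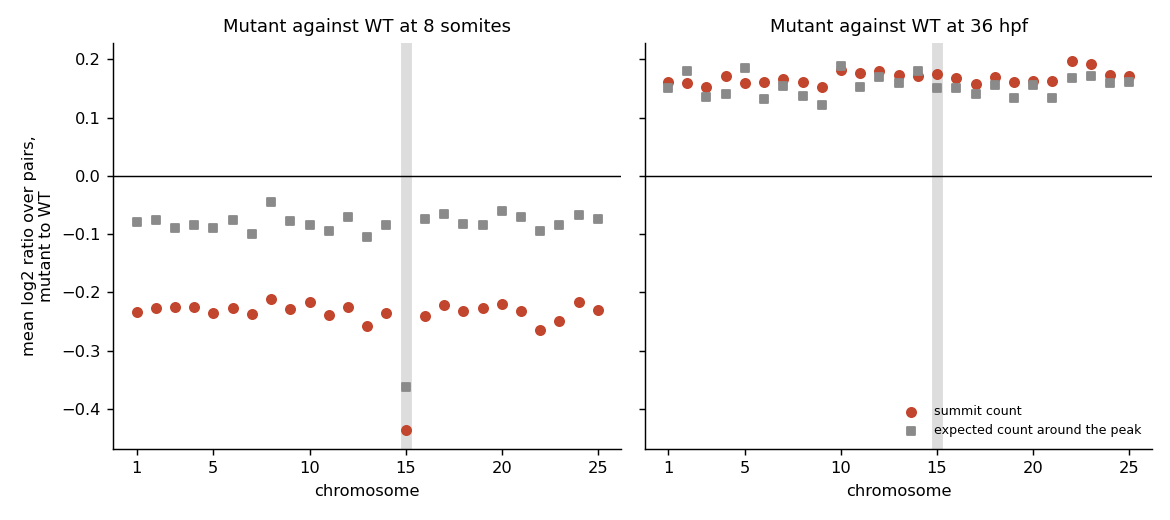
Mean log2 ratio of mutant to WT over the matched pairs of each of the 25 assembled chromosomes at 8 somites (left) and 36 hpf (right), for the summit count (red circles) and the expected count around the peak (grey squares). The grey band marks chromosome 15, which has −0.44 and −0.36 at 8 somites while the others lie at or above −0.26 and −0.10, and which lies among the others at 36 hpf. By rank of fold enrichment, the mean rank shift of chromosome 15 minus that of the others is 1.07 points, and the spread of the others under that ranking is not given.

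The difference covered the whole chromosome. When chromosomes were divided into deciles of their length, the mean log2 ratio of the expected count on chromosome 15 lay between −0.41 and −0.27 in all 10 deciles, and on the other chromosomes between −0.10 and −0.07. The summit count gave −0.50 to −0.38 on chromosome 15 and −0.27 to −0.19 elsewhere. The mean rank shift was negative in all 10 deciles of chromosome 15, from −9.02 to −2.91 points.

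**Figure D4:**
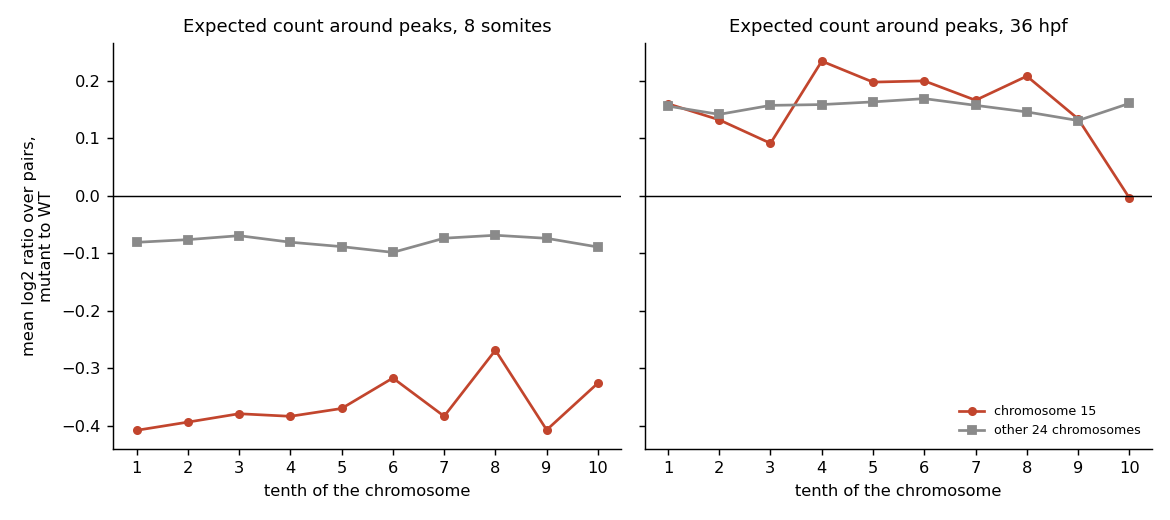
Mean log2 ratio of mutant to WT of the expected count around matched peaks, by decile of chromosome length, on chromosome 15 (red) and on the other 24 chromosomes together (grey), at 8 somites (left) and 36 hpf (right). At 8 somites all 10 points of chromosome 15 lie between −0.41 and −0.27 and all grey points between −0.10 and −0.07.

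The 41186 regions on assembled chromosomes with matched peaks in all 4 lists, 1572 of them on chromosome 15, showed which list departed from the rest. Against the WT list at 36 hpf, the expected count of the WT list at 8 somites had a mean log2 difference of −0.43 on chromosome 15 and of −0.78 to −0.69 on the others, a relative excess of 1.24-fold. Against the mutant list at 36 hpf the excess was also 1.24-fold. The mutant list at 8 somites gave −0.81 against WT at 36 hpf, inside the range of the others (−0.87 to −0.78), and was also inside it against the mutant list at 36 hpf. In summit counts, the WT list at 8 somites was in excess on chromosome 15 by 1.19-fold and 1.18-fold against the WT and mutant lists at 36 hpf. The mutant list at 8 somites was just outside the range of the others against WT at 36 hpf (1.03-fold) and inside it against the mutant at 36 hpf. The WT list at 8 somites was therefore the one that stood apart. It combines 2 embryos, and whether both or 1 of them carried the excess cannot be read from it. The number of copies of chromosome 15 in these embryos was not tested. Without chromosome 15, large shifts made up 22.8% of pairs, as they did with it.

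In windows of 5 Mb with at least 50 pairs, the 271 means of the rank shift had an SD of 2.53 points, and 2.26 points over the 261 windows outside chromosome 15. The standard error of such a window from its pairs alone, which are not independent replicates, was 1.20 points (root mean square over windows). The 7 lowest windows all lay on chromosome 15. The 3 lowest were its intervals from 5 to 10 Mb (−8.67 points), 30 to 35 Mb (−8.22) and 20 to 25 Mb (−8.08). The lowest on other chromosomes were chromosome 25 from 15 to 20 Mb (−5.12), chromosome 18 from 20 to 25 Mb (−4.44) and chromosome 5 from 40 to 45 Mb (−4.12). The highest were chromosome 4 from 40 to 45 Mb (6.84 points, 58 pairs), chromosome 21 from 45 to 50 Mb (6.58, 72 pairs) and chromosome 7 from 0 to 5 Mb (6.42, 161 pairs). Outside chromosome 15, shifts at 8 somites were slightly towards the mutant near chromosome ends, with mean shifts of 1.42 and 2.51 points in the first and last deciles. They were slightly towards WT in the middle, with −1.43 and −1.46 points in the fifth and sixth deciles. At 36 hpf the signs were the opposite. The means there were −0.44 and −1.47 points in the first and last deciles, and 1.55 and 1.61 in the fifth and sixth.

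The regions shifted at 8 somites were compared with their own shifts at 36 hpf, where other libraries of the same genotypes were used. In 42014 regions matched at both stages, the Spearman correlation of the rank shifts was −0.02, and without chromosome 15 it was −0.02 as well. Regions with a large shift towards WT at 8 somites (4471 regions, median −28.1 points) had a median shift of 0.54 points at 36 hpf. Those with a large shift towards the mutant (3919 regions, median 27.7 points) had a median of −0.56 points. Of the 4471 regions, 422 (9.44%, 8.62 to 10.3%) had a large shift towards WT also at 36 hpf and 492 had one towards the mutant, beside 7.45% and 8.29% of all 42014 regions. Of the 3919 regions, 423 (10.8%, 9.86 to 11.8%) were shifted towards the mutant again and 485 (12.4%, 11.4 to 13.4%) towards WT. In both sets the opposite direction was at least as frequent as the same direction. Large shifts of either direction were more frequent at 36 hpf in both sets than over all regions. Strength was not held equal in this comparison, and large shifts were concentrated at intermediate strength at both stages.

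**Figure D5:**
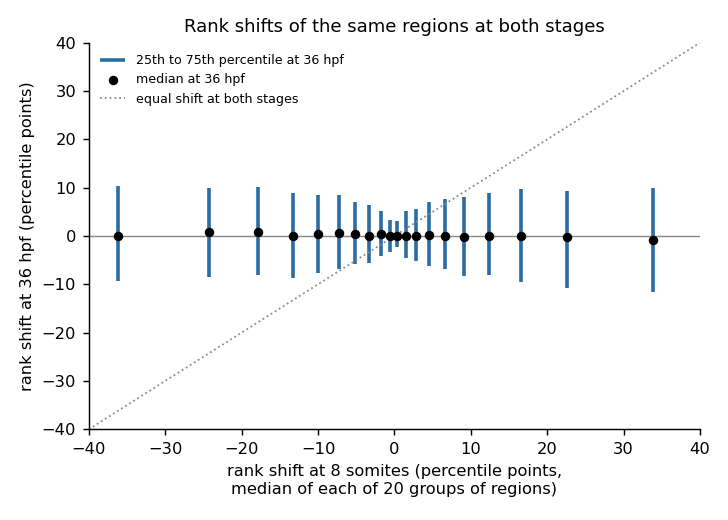
Rank shift at 36 hpf against rank shift at 8 somites, both mutant minus WT in percentile points, for 42014 regions in 20 groups ordered by their shift at 8 somites. Dots are medians and bars the quartiles at 36 hpf, and the dotted line is where equal shifts would fall. The medians at 36 hpf lie between −0.92 and 0.83 points in all 20 groups.

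Regions with shifts of at least 40 points at both stages were also counted. Of 36245 single-site regions on assembled chromosomes, 9 had shifts of at least 40 points in the same direction at both stages, 5 towards WT and 4 towards the mutant. Another 18 had such shifts in opposite directions. The share of regions with such a shift at each stage alone is not given here. Whether 9 and 18 differ from what those shares would yield cannot be read from them. The largest towards WT was chr8:24269730-24270153, with counts of 44 in WT and 16 in the mutant at 8 somites and of 44 and 25 at 36 hpf. The largest towards the mutant was chr22:8075820-8076109, with 22 in WT and 34 in the mutant at 8 somites and 29 and 55 at 36 hpf. Strong single sites gave small numbers. Of 56 shifted towards WT at 8 somites, 5 were shifted towards WT and 3 towards the mutant at 36 hpf. Of 38 shifted towards the mutant, 6 were shifted towards the mutant and 1 towards WT. Over all 7297 strong single sites, the shares at 36 hpf were 1.15% towards WT and 2.29% towards the mutant. These sites include pairs of the strongest decile at 8 somites, in which no pair had a large shift at 8 somites. Their strength at 36 hpf was ranked separately. Strength was not held equal, so the shares are not a matched base for the 56 and the 38 sites.

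The means over 5 Mb windows were also compared between stages. A mean over at least 50 pairs varies less than a single pair, so the sizes of the correlations over windows and over single regions are not comparable. Over 259 windows outside chromosome 15, the means at 8 somites and at 36 hpf had a Pearson correlation of −0.46, and 164 windows had opposite signs. The interval from 20 to 25 Mb of chromosome 18 had −4.44 points at 8 somites and 4.70 at 36 hpf. Windows share neighbouring sequence, density of peaks and base composition, none of which was tested, and no p-value is given for this description. Over all 269 windows, chromosome 15 included, the correlation was −0.42. It was −0.24 with windows of 1 Mb, −0.28 with ranks by fold enrichment, −0.36 with IDR limited to 0.01 and −0.34 with ranks by summit count, each also with chromosome 15 included.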

How the data were processed

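ATAC-seq libraries of single WT and *tp63* mutant embryos at 8 somites were compared through 1 deposited peak list per genotype, with the 36 hpf lists beside them. Per the labels the authors used Bowtie2 and SAMtools and the GRCz10 (danRer10) assembly. The peak caller is not given in the sources used here. The authors deposited peaks kept by the irreproducible discovery rate (IDR) over both replicates, which compares ranks between replicates, with no global IDR above 0.1. The deposited values used were a fold enrichment (a linear ratio), a −log10 p-value, the −log10 global IDR (a score limited at the top) and the summit offset. Whether peaks were scored on pooled reads was not stated.

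Peaks were paired as reciprocal best overlaps and ranked among pairs. Ties were frequent (86.6% of WT and 87.8% of mutant peaks shared both values with another peak) and were broken by genome position. Summit counts n and expected counts λ were solved from fold = (n + 1)/(λ + 1) and the Poisson probability of more than n tags, within 0.001 in −log10 p. All expected counts above the minimum of a list were whole multiples of 0.01 (within 10% of a step). The procedures were tested on simulated data and overlap counts were checked against bedtools 2.31.1. Shares have Wilson 95% intervals and count ratios exact 95% intervals, both for counting error only.

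Regions named were the 10 largest shifts in each direction and the 3 largest summit and width changes among pairs at or above the 90th percentile in one genotype, the 5 strongest pairs, and the 3 highest and 3 lowest windows. Regions called strong single sites were added after their values were seen, as were the summit counts and the alternatives without chromosome 15, with mean ranks for ties, with single sites only, with ranks by summit count, and with counts corrected for a limit of 200 positions. The members and lists were chosen with earlier results of these data known. Analyses used Python 3.11.15, numpy 2.4.6, pandas 2.3.3, scipy 1.17.1 and matplotlib. Gene annotation and DNA sequence of GRCz10 were not used here.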

Additional observations from a re-analysis of the deposited data

Results flagged for a closer look

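The direction of the genotype difference was opposite at the 2 stages in summit counts, with a median log2 ratio of mutant to WT of −0.24 at 8 somites and 0.16 at 36 hpf. The width of matched peaks followed the same course, with a narrower mutant peak in 61.5% of pairs at 8 somites and in 38.7% at 36 hpf. Each value rests on 1 list per genotype and stage, so neither difference between stages was tested. Groups had 2 replicates combined in 1 list, which left no value per sample for a search for outlying samples.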

How the results depend on the processing

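Of 123 alternative values, 84 stayed within tolerance, 38 moved and 1 reversed. The tolerance was the counting interval for shares, 1 SD over the other chromosomes for chromosome 15, 0.05 for correlations and 1.5 times for SDs. The mean rank shift of chromosome 15 minus the other chromosomes, −5.88 points, was 1.07 with ranks by fold enrichment, −6.59 with IDR limited to 0.01 and −10.1 with ranks by summit count. Its log2 summit count minus the others, −0.21, was −0.19 with IDR limited to 0.01 and −0.23 after correction for a limit of 200 positions. WT peaks without a mutant peak (33.2%) made up 35.2% with an overlap of 50% of both peaks, 36.7% with summits within 100 bp, 31.8% with IDR limited to 0.05, 31.0% with IDR limited to 0.01, and 24.4% with equal list sizes, where mutant peaks without a WT peak went from 18.9% to 23.9%. Large rank shifts (22.8% of pairs) made up 23.7% with IDR limited to 0.01, 23.3% with equal list sizes, 23.2% by fold enrichment, 24.1% with percentiles in the whole list, 17.95% with ranks by summit count, and 48.1% and 9.54% with thresholds of 10 and 30 points. The share of them towards WT, 50.3%, was 73.9% with percentiles in the whole list, where the lists' unequal lengths enter. Summit distances above 100 bp (4.90%) made up 4.56% with 50% overlap, 4.39% with IDR limited to 0.05, 3.67% with 0.01 and 4.57% with equal list sizes. Above 50 bp there were 19.3%. A narrower mutant peak (61.5%) was found in 62.3% with IDR limited to 0.01, 62.1% with equal list sizes and 62.5% of pairs with ranks within 5 points. The correlation of rank shifts between stages, −0.02, was within tolerance in all 12 alternatives tried, but the tolerance of 0.05 is larger than the value itself. The alternatives ran from −0.044 with ranks by summit count to −0.005 with percentiles in the whole list. The cause of the other moves was not tested. With 1 list per group, no replicate could be left out. No paired analysis was possible because both replicates of a group share 1 list and no result comes from a test. The alternatives on genes and motifs were not run, since no genome of the build was used. Precision is limited by the low counts of weak peaks, by ties in rank and by the compression of high counts.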
